A study of Rattus norvegicus with 13 samples.

Results

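The 7 genes of the urea cycle and of hepatic glutamine handling were examined in the livers of pregnant rats that received ethanol, less energy, or both. The genes were Cps1, Otc, Ass1, Asl and Arg1 of the cycle, the liver glutaminase Gls2 and the glutamine synthetase Glul. They were represented by every probe set, other than controls, whose single gene symbol in the array's annotation was one of these names. This gave 14 of 8740 probe sets, for 7 of the 4736 genes so named on the array, and 13 of the 14 were among the 5244 probe sets bright enough to be tested. The rule used gene names only, but the set of names was drawn up with earlier results of these data known.

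The urea cycle turns toxic ammonia and the nitrogen of amino acids into urea, and liver is the organ that runs it in full. Its enzymes, and the glutaminase that feeds it with ammonia, are concentrated in periportal hepatocytes, where blood enters the lobule. Ammonia that escapes them is captured as glutamine by glutamine synthetase, which is confined to a narrow rim of hepatocytes around the central vein. Transcripts of the cycle are known to respond to glucagon, glucocorticoids, insulin and protein intake.

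Time-mated female Sprague Dawley rats were studied on 4 diets, and RNA labelled as hepatic was hybridised to 1 one-colour rat array per sample. TEN-220 (n = 3 arrays) received no ethanol, at an energy supply of 220 kcal per day scaled to body weight in kg raised to 0.75. EtOH-220 (n = 3) received 12 g of ethanol per kg per day at that same energy supply. TEN-160 (n = 3) and EtOH-160 (n = 4) were undernourished at 160 kcal, the former without ethanol and the latter with 12 g per kg per day. Neither the day of gestation nor whether 1 array stands for 1 animal or for a pool is given in the sources used here, so p-values measure only the spread between these samples. All 8 measured hepatocyte markers were above background in every group, with sums of signal between 191300 and 210400.

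Some arrays stood apart. The 2%-trimmed mean of the deposited signal was 132.7 on TEN-220 replicate 1 and between 499.3 and 500 on the other 12, so all arrays were put on a common distribution before any value below was taken. TEN-160 differed in the signal ratio of the spiked BioDn-5 and BioDn-3 controls, which ran from 0.422 to 0.497 there and from 0.132 to 0.210 elsewhere. RNA quality was read from the GAPDH 3'/5' ratio, which was 1.525 to 2.323 in TEN-220, 1.038 to 1.47 in EtOH-220, 1.026 to 1.242 in TEN-160, and in EtOH-160 ran from 1.505 to 1.726. These groups did not overlap in it in any comparison between 2 groups whose labels differ only in the ethanol dose or only in the energy supply. The actin 3'/5' ratio was read as well, and in it the groups overlapped in every one of these comparisons. Its lowest and highest values were 1.775 and 2.31 for EtOH-160, and 1.91 and 2.961 for TEN-160. For EtOH-220 they were 1.931 and 2.179, and for TEN-220 1.972 and 3.002. The part of RNA quality in the results below was not tested.

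The upstream sequence of 5 of the genes is shown because their signals followed the diets in different ways. The stretch before the start is one of the places where regulators of a gene can act. Sites farther upstream were not searched. RefSeq's promoter table for build GRCr8 held 6 of the 7 genes, Arg1 not being among them. The 250 bases before each start were searched on both strands for 7 short motifs, and capitals mark every match. Only bases outside the annotated span of the gene are printed, which leaves 121 bases for Asl and 128 for Gls2 and none for Ass1.
Cps1 (chr9:76063613-76063862, + strand): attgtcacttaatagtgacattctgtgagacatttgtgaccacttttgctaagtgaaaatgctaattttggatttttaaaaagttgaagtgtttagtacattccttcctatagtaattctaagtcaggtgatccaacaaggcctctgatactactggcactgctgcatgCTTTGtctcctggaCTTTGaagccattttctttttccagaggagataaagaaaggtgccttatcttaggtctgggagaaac
Otc (chrX:15202474-15202723, - strand): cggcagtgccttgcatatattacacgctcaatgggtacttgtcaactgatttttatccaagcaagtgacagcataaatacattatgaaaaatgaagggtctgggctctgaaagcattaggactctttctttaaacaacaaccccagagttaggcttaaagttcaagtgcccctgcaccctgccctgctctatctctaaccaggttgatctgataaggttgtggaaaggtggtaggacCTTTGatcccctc
Asl (chr12:32295658-32295778, + strand): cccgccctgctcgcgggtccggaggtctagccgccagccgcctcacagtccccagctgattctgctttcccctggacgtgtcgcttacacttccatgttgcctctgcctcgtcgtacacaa
Gls2 (chr7:1201629-1201756, + strand): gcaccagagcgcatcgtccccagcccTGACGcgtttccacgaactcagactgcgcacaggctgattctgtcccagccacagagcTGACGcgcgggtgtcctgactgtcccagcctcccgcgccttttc
Glul (chr13:68519250-68519499, + strand): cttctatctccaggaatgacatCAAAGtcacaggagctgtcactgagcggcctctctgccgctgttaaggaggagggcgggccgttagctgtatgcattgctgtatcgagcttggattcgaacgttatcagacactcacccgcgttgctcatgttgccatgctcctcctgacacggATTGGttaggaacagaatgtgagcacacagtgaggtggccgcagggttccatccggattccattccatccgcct

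The printed stretch of Asl held no match to any of the 7 motifs. In Gls2 the capitals are 2 copies of TGACG, the core of the cAMP response element. They begin 224 and 166 bases before the first of 2 annotated starts. The window before the second Gls2 start held no match to any motif. This core was in 18.2% of the 33469 promoters of the table searched over the same length, and the full element TGACGTCA, which contains it, in 1.59%. Cps1 had 2 matches to CAAAG, a stretch of the site of the hepatocyte factor HNF4, and Otc had 1; this motif was in 48.2% of promoters. CTTTG and ATTGG in capitals are CAAAG and CCAAT on the other strand. Upstream of the first of 2 annotated Glul starts lay 1 CAAAG and 1 CCAAT, a general promoter box found in 34% of promoters. Gls2 also had 1 CCAAT match, 93 bases before its first start, in the part that is not printed. AGAACA of the glucocorticoid receptor (17.5% of promoters), TTNNGCAA of C/EBP (9.22%) and TATAAA (12.9%) were not in the 5 printed stretches. The matches are a description of letters and not of bound sites.

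The genes lie apart in the GRCr8 genome, so none shares a promoter with another. Cps1 spans chr9:76063863-76186739, Otc chrX:15126358-15202473 and Ass1 chr3:35144765-35194632. Asl spans chr12:32295779-32313257, Arg1 chr1:22295093-22307720, Gls2 chr7:1201757-1218014 and Glul chr13:68519500-68585554.

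EtOH-160 against TEN-160 asks what ethanol did in undernourished rats. Of the 13 tested probe sets 6 rose and 1 fell, against 11.9% and 10.4% of all 5244 tested (22.3% in either direction), by limma with Benjamini-Hochberg adjustment. The 6 that rose belonged to Ass1, both probe sets of Asl, Gls2, Arg1 and 1 of 2 probe sets of Cps1, and the 1 that fell was 1 of 4 for Glul. No Otc probe set was called. Median-centring in place of quantile normalization gave 6 rises and 0 falls, and with the values as deposited Ass1 alone stayed called. The unscaled array, TEN-220 replicate 1, is in neither of these groups but shares the fit. Leaving it out of the main fit kept all 7 calls. Arrays of the 2 groups were fully separated on 7 of the 13, against 31.1% of all.

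**Figure D1:**
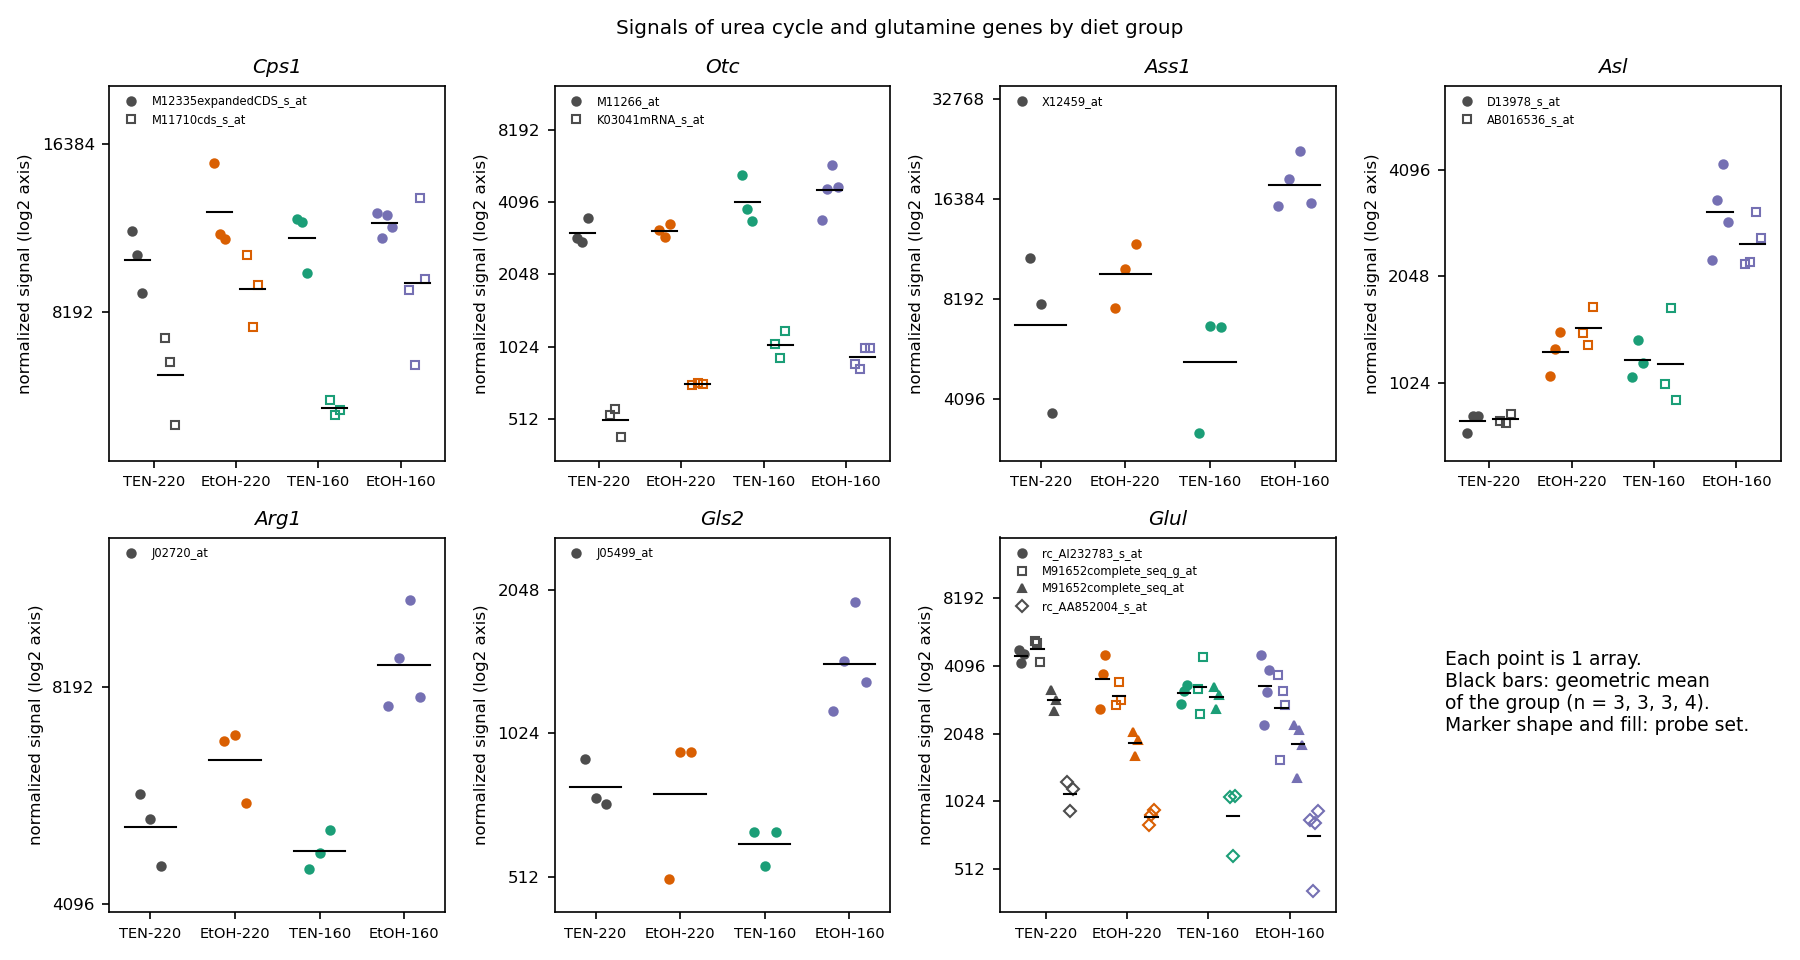
Normalized signal on a log2 axis for the 13 tested probe sets of 7 genes in the 4 diet groups; each point is 1 array, black bars are geometric means of 3, 3, 3 and 4 arrays, and marker shapes separate the probe sets of a gene. For Asl and Ass1 all 4 EtOH-160 arrays lie above the 9 others, while for 3 of the 4 Glul probe sets the highest array is TEN-220 replicate 1.

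Cps1 makes carbamoyl phosphate from ammonia in the mitochondrion and is the entry step of the cycle. On probe set M11710cds_s_at its normalized signals were 5705, 5368 and 5485 in TEN-160 and 8984, 6586, 13140 and 9407 in EtOH-160. They were 7366, 6685 and 5153 in TEN-220 and 10380, 7713 and 9168 in EtOH-220. The lowest array with ethanol was above the highest without it at each energy level. At 160 kcal the signal rose 1.68-fold with ethanol, a log2 change of 0.745 (standard error of the fit, SE, 0.198; adjusted p = 0.0168). The other probe set, M12335expandedCDS_s_at, did not follow: its signals were 12020, 11870 and 9635 in TEN-160 and 12320, 11140, 12250 and 11640 in EtOH-160, groups that overlapped, with a change of 0.09 (95% confidence interval −0.21 to 0.39, adjusted p = 0.69). The remaining Cps1 probe set, Z27513exon_i_at, was too dim to be tested, at the floor of 9.338 on 11 of 13 arrays.

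Otc joins carbamoyl phosphate to ornithine. Its 2 probe sets did not pass the test for ethanol at either energy level. On K03041mRNA_s_at the signals were 531.1, 567.3 and 430.6 in TEN-220 and 712.8, 726.4 and 718 in EtOH-220. In the undernourished groups they were 1050, 918.6 and 1186 without ethanol and 867.2, 828.2, 1016 and 1014 with it. The 3 groups other than TEN-220 were thus all higher than every TEN-220 array, and ethanol and its control overlapped at 160 kcal. The change with ethanol at 160 kcal was −0.17 on this probe set (95% interval −0.50 to 0.15) and 0.16 on M11266_at (−0.24 to 0.56).

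Ass1 condenses citrulline with aspartate, which brings in the second nitrogen, and is regarded as the slow step of the cytosolic part. Its signals were 3226, 6800 and 6741 in TEN-160 and 15570, 18820, 22790 and 15900 in EtOH-160. They were 10890, 7889 and 3698 in TEN-220 and 7694, 10070 and 11950 in EtOH-220. All 4 arrays with both treatments were higher than each of the 9 others. TEN-220 overlapped both other groups, and all EtOH-220 arrays were above all TEN-160 arrays. Ass1 had the largest change of the 13 probe sets in this comparison, 3.41-fold, a log2 change of 1.77 (SE 0.333; adjusted p = 0.0024). Its spread within both groups without ethanol was wide, with a standard deviation of 0.80 on the log2 scale in TEN-220 and 0.62 in TEN-160.

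Asl splits argininosuccinate into arginine and fumarate. On D13978_s_at the signals were 1065, 1360 and 1169 in TEN-160 and 2274, 3363, 4236 and 2906 in EtOH-160. The control arrays read 742.8, 830.4 and 829.6 in TEN-220, and those with ethanol alone 1075, 1276 and 1430 in EtOH-220. The order was the same on AB016536_s_at, at 801.5, 793.8 and 839.9 in TEN-220, 1421, 1317 and 1683 in EtOH-220, 1020, 1665 and 921 in TEN-160, and 2222, 2250, 3106 and 2631 in EtOH-160. On both probe sets each EtOH-160 array was above all other arrays and each TEN-220 array below all others, with the single treatments between them and overlapping each other. With ethanol at 160 kcal Asl rose 2.61-fold on the first probe set and 2.18-fold on the second, log2 changes of 1.39 and 1.12 (SE 0.192 and 0.198; adjusted p = 4.05e-04 and 0.00168).

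Arg1 releases urea from arginine and returns ornithine to the cycle. Its signals were 4572, 4815 and 5182 in TEN-160 and 7713, 8984, 10830 and 7930 in EtOH-160. They were 5813, 5368 and 4613 in TEN-220 and 6889, 7030 and 5647 in EtOH-220. The EtOH-160 arrays were again above all 9 others. Arg1 rose 1.81-fold with ethanol at 160 kcal, a log2 change of 0.86 (SE 0.143; adjusted p = 0.00125).

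Gls2 releases ammonia from glutamine beside the mitochondrial start of the cycle. Its signals were 634.4, 538.2 and 636.3 in TEN-160 and 1139, 1454, 1937 and 1314 in EtOH-160. They were 904.3, 750.2 and 727.8 in TEN-220 and 507, 934.5 and 935.8 in EtOH-220. All EtOH-160 arrays were the highest of the 13, and EtOH-220 replicate 1 was the lowest. Gls2 rose 2.38-fold with ethanol at 160 kcal, a log2 change of 1.25 (SE 0.23; adjusted p = 0.00207).

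Glul makes glutamine from ammonia and glutamate, the reverse of the Gls2 reaction. On M91652complete_seq_at the signals were 3317, 2641 and 3047 in TEN-160 and 2241, 1306, 2131 and 1827 in EtOH-160. In the normally fed groups they were 3208, 2590 and 2879 without ethanol and 2084, 1626 and 1924 with it. Every array with ethanol was lower than every array without it, whatever the energy supply. At 160 kcal Glul fell 1.63-fold on this probe set, a log2 change of −0.70 (SE 0.184; adjusted p = 0.0156). Its call was lost without TEN-160 replicate 1 (a change of −0.62, adjusted p = 0.0637) and with median-centred values (−0.44, adjusted p = 0.14).

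The other 3 Glul probe sets did not pass and their groups overlapped at 160 kcal. The companion set from the same sequence, M91652complete_seq_g_at, had a change of −0.31 (95% interval −0.87 to 0.25), rc_AA852004_s_at −0.30 (−0.89 to 0.30) and rc_AI232783_s_at 0.12 (−0.38 to 0.61). The 4 Glul changes thus ran from −0.70 to 0.12. Among the arrays, EtOH-160 replicate 2 was the lowest of 13 in 4 of 4 Glul probe sets, with 409.7 on rc_AA852004_s_at against 821.6 to 923.5 on the other 3 arrays of its group. EtOH-160 replicate 3 was the highest array in 7 of the 9 probe sets of the cycle and Gls2.

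The median change with ethanol at 160 kcal was 0.86 over the 9 probe sets of the cycle and Gls2 and −0.30 over the 4 of Glul, beside 0.02 over all tested. The 2 groups also differed in the GAPDH ratio and in the BioDn ratio given above, which cannot be told apart from the diet here. Their actin ratios overlapped. In whole liver, fewer cells of a type and less RNA per cell cannot be told apart either.

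**Figure D2:**
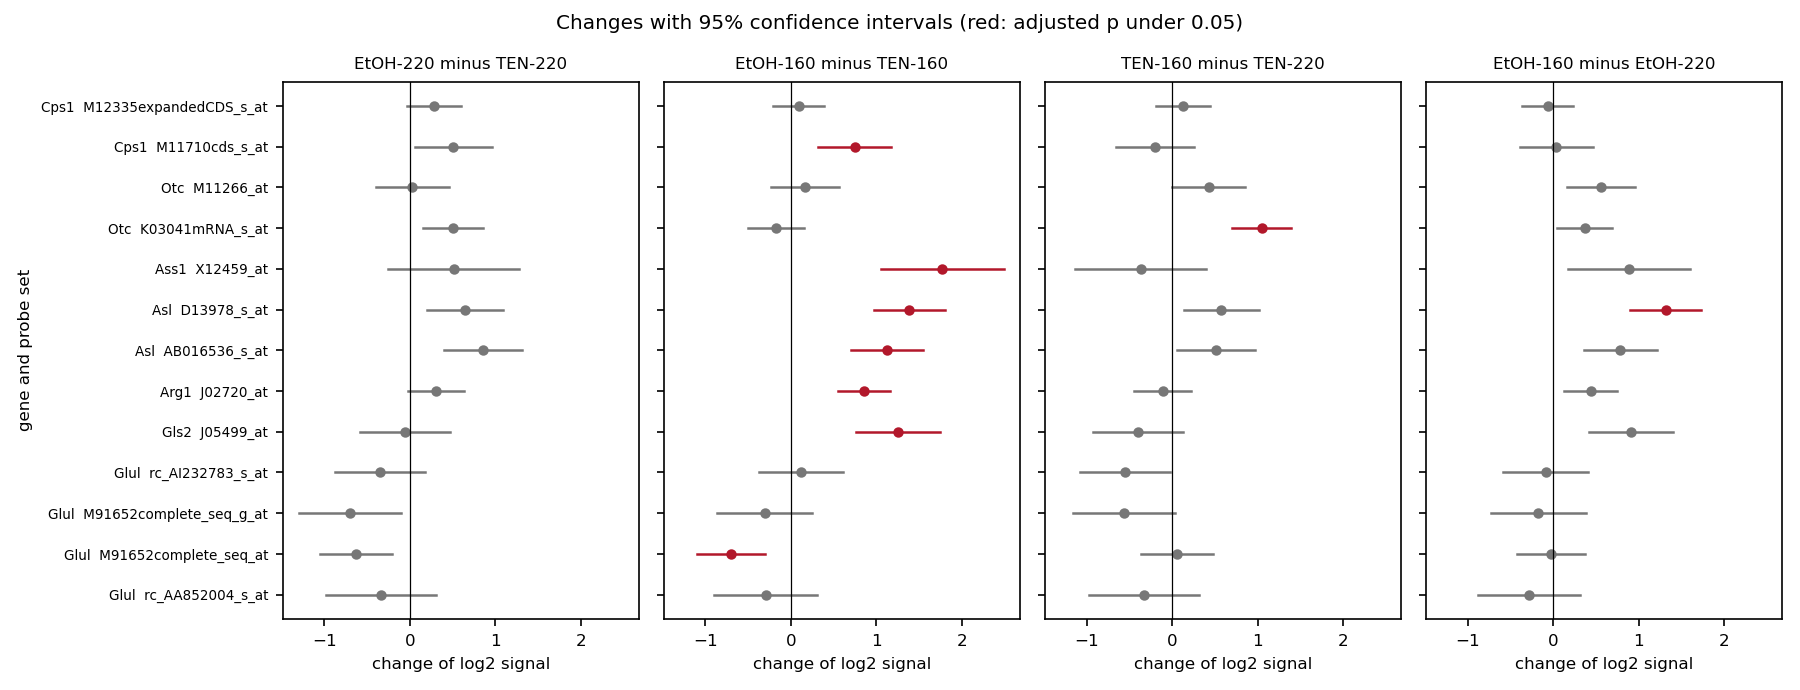
Change of log2 signal with its 95% confidence interval for the 13 tested probe sets in 4 comparisons. In each, the labels of the groups differ only in the ethanol dose or only in the energy supply. Red marks an adjusted p under 0.05 in the limma fit over 5244 probe sets. Of the red points 7 are in EtOH-160 minus TEN-160, 1 (Otc) in TEN-160 minus TEN-220 and 1 (Asl) in EtOH-160 minus EtOH-220.

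EtOH-220 against TEN-220 asks the same at the full energy supply. None of the 13 probe sets was called by limma (0, where 0.0191% of all tested were). An unadjusted p under 0.05 was reached by 6 of the 13, against 9.99% of all tested, and the groups of 6 did not overlap, against 17.8%. Asl had changes of 0.65 and 0.85 on the log2 scale on its 2 probe sets (SE 0.206 and 0.212, limma adjusted p = 0.329 and 0.213), with all EtOH-220 arrays above all TEN-220 arrays on both. Otc K03041mRNA_s_at and Cps1 M11710cds_s_at had changes of 0.51 each (adjusted p = 0.33 and 0.474).

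For Glul the changes were −0.70 on M91652complete_seq_g_at, −0.63 on M91652complete_seq_at, −0.35 on rc_AI232783_s_at and −0.34 on rc_AA852004_s_at, none called (adjusted p from 0.327 to 0.753). On M91652complete_seq_g_at the signals were 5311, 5168 and 4283 in TEN-220 and 2746, 3468 and 2884 in EtOH-220, which did not overlap. Positive changes were found in 8 of 9 probe sets of the cycle and Gls2 and in 0 of 4 of Glul, where 45.4% of all tested were positive. The medians were 0.51 and −0.49, against −0.04 over all tested. With the values as deposited, where TEN-220 replicate 1 is unscaled, the median over all tested was 0.64, that of the cycle and Gls2 1.09 and that of Glul 0.14, so the sign of Glul turned although it lay below the general median in both.

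For Gls2 at 220 kcal the change was −0.05 (95% interval −0.58 to 0.48), where EtOH-220 replicate 1 lay at 507 and the other 2 arrays at 934.5 and 935.8. Leaving out that array turned its sign, to 0.24, also not called. Its changes with ethanol differed between the energy levels by 1.31 on the log2 scale (SE 0.336, limma adjusted p = 0.033). It was the only one of 13 probe sets called in this interaction, where 7.13% of all tested were called and 4.04% higher. The call was lost on leaving out TEN-220 replicate 1, 2 or 3, EtOH-220 replicate 1, TEN-160 replicate 1 or 2, or EtOH-160 replicate 2 or 3, with differences of 1.01 to 1.46 over all arrays left out and the highest adjusted p, 0.0904, without TEN-220 replicate 1. For Ass1, Asl D13978_s_at and Arg1 the differences were 1.26, 0.74 and 0.55 and were not called (adjusted p = 0.129, 0.122 and 0.123), so a different response at the 2 energy levels was not established for them. For Otc K03041mRNA_s_at the difference was −0.68 (adjusted p = 0.0775).

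TEN-160 against TEN-220 asks what the lower energy supply did alone. A single probe set of the 13 was called, for Otc, where 17.8% of all tested were called and 7.84% higher; median-centring gave 1 rise and 1 fall. Otc K03041mRNA_s_at rose 2.07-fold in the undernourished rats, a log2 change of 1.05 (SE 0.162; adjusted p = 9.03e-04). Leaving out the unscaled array, TEN-220 replicate 1, gave 1.08 (adjusted p = 0.0051). On M11266_at the signals were 2906, 2802 and 3499 in TEN-220 and 5311, 3830 and 3406 in TEN-160, which overlapped, and the change of 0.43 was not called (95% interval 0.0021 to 0.853, adjusted p = 0.157).

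Asl had changes of 0.58 and 0.52 on its 2 probe sets (adjusted p = 0.0697 and 0.11), and its groups did not overlap on either. In all, the groups of 5 of the 13 probe sets did not overlap, a share near the 36.5% of all tested. Cps1, Ass1 and Arg1 overlapped, with changes of 0.13 and −0.20 for Cps1, −0.37 for Ass1 (95% interval −1.13 to 0.40) and −0.11 for Arg1 (−0.44 to 0.22). Gls2 had a change of −0.39 (adjusted p = 0.293). The 4 Glul probe sets had changes of −0.56, −0.55, −0.33 and 0.05, none called. The median was 0.13 over the cycle and Gls2, −0.44 over Glul and −0.03 over all tested. The BioDn and GAPDH ratios of TEN-160 stood apart here too, and its actin ratio did not.

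EtOH-160 against EtOH-220 asks what the lower energy supply did in rats given ethanol. Asl D13978_s_at was the only member probe set called, where 0.286% of all tested were. It rose 2.49-fold, a log2 change of 1.31 (SE 0.192; adjusted p = 0.00963). Its second probe set had a change of 0.79 (SE 0.198, adjusted p = 0.111), with no overlap between the groups. The call was lost without EtOH-220 replicate 1 (1.203, adjusted p = 0.0658), EtOH-160 replicate 3 (1.17, 0.0537) or EtOH-160 replicate 4 (1.35, 0.0542).

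On 7 of the 13 probe sets the arrays were fully separated, against 10.2% of all tested, and 7 reached an unadjusted p under 0.05, against 11.1%. Besides Asl these were Gls2 with a change of 0.91 (adjusted p = 0.111), Ass1 with 0.89 (0.331), Arg1 with 0.44 (0.241) and the Otc probe sets with 0.56 and 0.37 (0.248 and 0.393). Cps1 differed by −0.07 and 0.04, and the Glul probe sets by −0.02 to −0.29, with overlapping groups in each.

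Both treatments together were set against the control group, EtOH-160 against TEN-220. Of the 13 probe sets 5 rose and 0 fell, where 2.23% of all tested were called and 1.33% were higher. Asl rose 3.89-fold and 3.12-fold on its 2 probe sets, log2 changes of 1.96 and 1.64 (SE 0.192 and 0.198; adjusted p = 2.48e-04 and 7.66e-04). These calls held in all 27 alternatives, with 0.00442 and 0.00715 as the highest adjusted p. Otc K03041mRNA_s_at rose by 0.87, Arg1 by 0.74 and Ass1 by 1.40 (SE 0.152, 0.143 and 0.333, adjusted p = 0.00867, 0.017 and 0.0446). Ass1 was called by a small margin and lost its call in 16 of 27 alternatives, among them those without TEN-220 replicate 3 (0.96, adjusted p = 0.167) and without any 1 EtOH-160 array. Without TEN-220 replicate 3 the Otc and Arg1 calls were lost as well, at changes of 0.76 and 0.65, which left 2 calls, and without TEN-220 replicate 2 the Arg1 call was lost (0.76, adjusted p = 0.0592).

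Gls2 had a change of 0.86 in this comparison (adjusted p = 0.0751), Cps1 0.22 and 0.55, and Otc M11266_at 0.59. All 4 Glul probe sets had negative changes, −0.87, −0.65, −0.62 and −0.44, with adjusted p between 0.0928 and 0.429. Arrays were fully separated on 8 of 13 probe sets, against 16.8% of all tested, and an unadjusted p under 0.05 was reached by 11, against 13.8%. The median over the cycle and Gls2 was 0.86, over Glul −0.64 and over all tested −0.02. This comparison shares its EtOH-160 arrays with 2 of those above and its TEN-220 arrays with 2, so the 5 sets of changes are not separate observations.

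Seen array by array, the mean of the cycle genes and Gls2 moved apart from Glul, but not every one of these genes did so on every array. Each gene's log2 signal, averaged over its tested probe sets, was set against its own mean in TEN-220. The mean of the 6 genes was 0.77, 0.94, 1.31 and 0.92 on the EtOH-160 arrays and 0.24, 0.39 and 0.46 on the EtOH-220 arrays. For TEN-160 it was −0.04, 0.13 and 0.09, and for the control group 0.19, 0.04 and −0.23. Both ethanol groups therefore lay wholly above the groups without ethanol, and EtOH-160 wholly above EtOH-220.

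Glul on the same scale was −0.28, −1.31, −0.50 and −0.49 on the EtOH-160 arrays, −0.64, −0.48 and −0.40 on EtOH-220, −0.29, −0.63 and −0.13 on TEN-160 and 0.13, −0.11 and −0.02 on TEN-220. The 3 treated groups overlapped one another and lay below the control group, TEN-160 replicate 3 by the least. Gls2 alone was −0.32, −0.55 and −0.31 on TEN-160, close to Glul or below it. On EtOH-220 it was −0.64, level with Glul on replicate 1, and 0.24 on each of the other arrays. Ass1 was −1.08 on TEN-160 replicate 1, below Glul there. Asl showed the widest separation of the 7 genes by group mean, at 1.80 in EtOH-160 (SD 0.28, n = 4), 0.75 in EtOH-220 (SD 0.17, n = 3) and 0.55 in TEN-160 (SD 0.31, n = 3). Otc had another order, at 0.74 in TEN-160 and 0.73 in EtOH-160 (SD 0.17 and 0.21), and 0.27 in EtOH-220 (SD 0.04).

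**Figure D3:**
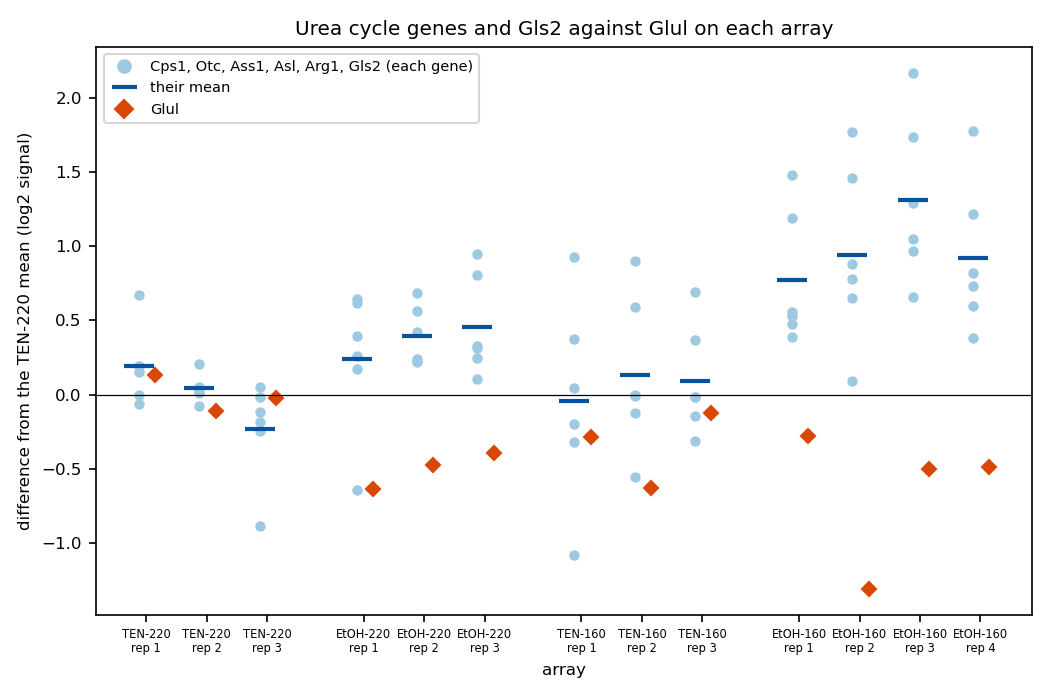
Difference of log2 signal from the TEN-220 mean on each of the 13 arrays, with light points for Cps1, Otc, Ass1, Asl, Arg1 and Gls2, a dark bar for their mean and a diamond for Glul, each gene averaged over its tested probe sets. On the 4 EtOH-160 arrays the bar lies between 0.77 and 1.31 and the diamond between −1.31 and −0.28.

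Other genes of ammonia and amino nitrogen handling were taken from a list of 40, of which 22 were on the array and 20 tested. With ethanol at 160 kcal 6 rose and 2 fell by limma, with a median change of 0.33, where 11.9% and 10.4% of all tested probe sets did; the falls are near that share. Gpt, the alanine aminotransferase that passes amino groups into the glutamate pool, had levels of 310.8 in TEN-160 against 1359 in EtOH-160, a log2 change of 2.13 (SE 0.286; adjusted p = 3.71e-04). Slc7a2, a carrier of arginine and ornithine, rose by 1.31, Aqp9, a hepatic channel for glycerol and urea, by 1.00, and Glud1, the glutamate dehydrogenase, by 0.80 (SE 0.269, 0.187 and 0.147). The 2 other probe sets of Glud1 had changes of −0.58 and 0.38. The aspartate aminotransferases Got1 and Got2, which supply the aspartate used by Ass1, also rose, by 1.19 and 0.42.

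The 2 that fell were Gatm, which uses arginine to begin creatine synthesis, by 1.08, and Oaz2, an inhibitor of polyamine synthesis, by 0.72. Gatm was dim, with levels of 110.2 in TEN-160 and 52.15 in EtOH-160 beside a background of 46.67, so the size of its fall is uncertain. With ethanol at 220 kcal 0 of the 20 were called. Without ethanol 4 of the 20 were called, near the 17.8% of all tested: at the lower energy supply there was 1 rise, of Oaz2 by 1.60, and 3 falls, of Gpt by 1.04, Asnsd1 by 0.78 and Glud1 by 0.52; other probe sets of the latter 2 differed in sign among themselves. Under ethanol the lower energy supply gave 0 calls among the 20, and both treatments together gave 3 rises, of Got1 by 1.60, Oaz2 by 0.88 and Aqp9 by 0.85. In the interaction Gpt was higher by 1.58 and Oaz2 lower by 1.88 (adjusted p = 0.0373 and 0.00315).

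**Figure D4:**
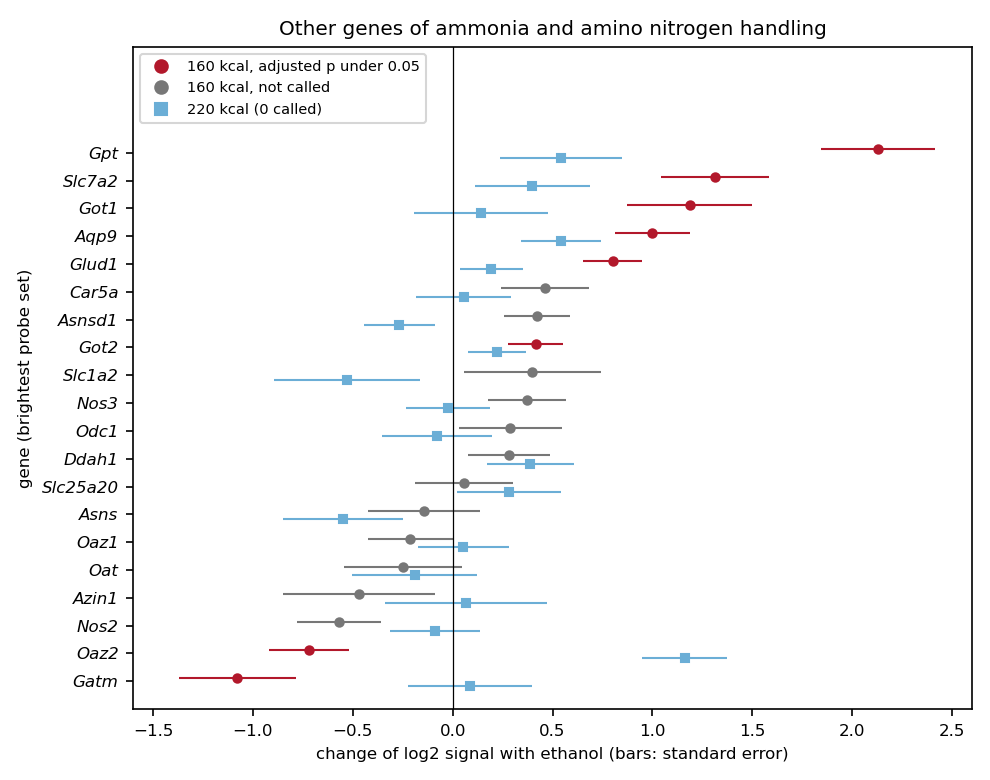
Change of log2 signal with ethanol for 20 tested genes of ammonia and amino nitrogen handling other than the 7 members, by the brightest probe set of each gene, with standard errors; circles are EtOH-160 minus TEN-160 and squares EtOH-220 minus TEN-220. Gpt has the largest change at 160 kcal, 2.13, and none of the squares is called.

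Regulators known for acting on urea cycle genes, and targets that report on them, came from a list of 24, with 18 on the array and 17 tested. With ethanol at 160 kcal 5 rose and 0 fell, beside 11.9% and 10.4% of all tested. Sds, a serine dehydratase induced by glucagon, rose by 4.44 (SE 0.615, limma adjusted p = 4.05e-04), with 2.08 on its other probe set. Klf9, a glucocorticoid-induced factor, rose by 1.32. Other hormone-related genes of the list were not called. Tat had 0.66, the glucagon receptor Gcgr 0.51 and Pck1, a gluconeogenic enzyme, 0.07 (limma adjusted p = 0.053, 0.144 and 0.953). The liver factors Cebpa and Cebpb rose by 0.84 and 0.62 (adjusted p = 0.00117 and 0.00656). Without ethanol the lower energy supply went with falls of these 2 factors, by 0.59 and 1.17. Klf9 rose by 0.73 and Pck1 by 2.48. These 2 rises and 2 falls among the 17 are near the 17.8% of all tested that were called. Under ethanol Klf9 rose by 1.30 and Sds by 3.92 at the lower energy supply. With both treatments Klf9 and Pck1 rose by 2.06 and 2.54. Sds rose as well, from a control level of 47.65, close to the background of 46.67, so the size of its change is not given, and with ethanol at 220 kcal 0 were called. In the interaction 2 were higher, Cebpb by 1.37 and Cebpa by 0.88, though the other probe set of Cebpa had −0.68.

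Some periportal markers rose with the members of that zone, while the 2 called perivenous markers rose, unlike Glul. Of 10 tested periportal markers other than the members 3 rose and 0 fell with ethanol at 160 kcal, beside 11.9% and 10.4% of all tested. They were Fbp1, by 0.85, and Sds and Gpt, which the lists above also hold. The others were not called. Their changes were 0.87 for Apoa4, 0.66 for Tat, 0.20 for Hal, 0.11 for Hsd17b13 and 0.07 for Pck1. Cyp2f4 and Igf1 had 0.06 each. Other probe sets had −0.80 and 0.43 for Hal and from −1.26 to 0.02 for Igf1. The summed signal of the 10 ran from 28110 to 30480 in TEN-160 and from 35670 to 52630 in EtOH-160. It ran from 25800 to 30270 in TEN-220 and from 27550 to 33270 in EtOH-220. Of 12 tested perivenous markers other than Glul 2 rose and 0 fell, a share near that of all tested: Aldh1a1 by 1.08 and the ethanol-oxidising Cyp2e1 by 0.46. The median change of the 12 was 0.23. Positive changes that were not called included 0.90 for Gulo, 0.51 for Car3 and 0.40 for Slc1a2. Negative changes that were not called included −1.18 for Rgn and −0.61 for Cyp1a2 (limma adjusted p = 0.111 and 0.0905), and −0.25 for Oat with −2.32 on its other probe set. Rgn had a level of 45.3 in EtOH-160, under background, and the other probe sets of Cyp1a2 had changes of 0.36 and −0.04. The sum over all 14 on the array ran from 30010 to 48160 in TEN-160, and from 45210 to 49950 in EtOH-160. The part of this zone in the Glul result was not tested.

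Other cell types were read from short lists. The 6 measured Kupffer cell and macrophage markers summed to 5449 to 6330 in TEN-220, 3211 to 6231 in EtOH-220, 5093 to 5967 in TEN-160, and EtOH-160 had 3382 to 4821, with 0 of 5 tested called in any comparison by limma. The 3 red cell markers summed to 8648 to 11750, 10660 to 15860, 8326 to 16240 and 5520 to 9860 in the same order, with 0 called. By group mean the 2 measured neutrophil markers were above background in TEN-220 and TEN-160 and not in EtOH-220 or EtOH-160. The 1 tested, S100a9, fell with ethanol at 160 kcal, from a level of 185.5 to 30.68, by a small margin (limma adjusted p = 0.0498). Sums of the 2 ran from 80.27 to 941.6 in TEN-160 and from 23.31 to 120.7 in EtOH-160, which overlapped. Sums of the 3 endothelial markers ran from 229.5 to 602.8, of the 5 stellate cell markers from 1055 to 3881 and of the 4 bile duct markers from 981.1 to 2276. Among these, Col1a1 of stellate cells fell with ethanol at 160 kcal (a change of −2.29), a size its other 3 probe sets did not reach, and Kdr of endothelium rose with the lower energy supply without ethanol, by 1.55. The part of these cells in the results was not tested.

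The genes whose pattern over the 13 arrays was most like that of a member were found by the root mean square difference of log2 signal after centring each probe set on its own mean. The measure was taken over 4296 probe sets of other single genes, and a smaller value means a closer pattern. Asl was followed most closely by Klf9, at 0.26, then by Gnmt, the glycine methyltransferase, at 0.28, where the median over all candidates was 0.87. The levels of Klf9 were 361.1 in TEN-220, 611.1 in EtOH-220, 599.9 in TEN-160 and 1501 in EtOH-160. Gls2 was followed by Slc37a4, the glucose 6-phosphate carrier, at 0.21, and Ivd, of leucine breakdown, at 0.24 (median 0.65).

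For Cps1 M11710cds_s_at the nearest was 1 probe set of Glud1, its neighbour in mitochondrial ammonia metabolism, at 0.19 (median 0.54). Other probe sets of these genes differed: with ethanol at 160 kcal Cps1 M12335expandedCDS_s_at changed by 0.09 and the remaining Glud1 ones by −0.58 and 0.38. Arg1 was nearest to Gde1 at 0.15 and to Pdha1, a subunit of pyruvate dehydrogenase, at 0.19 (median 0.52). Otc K03041mRNA_s_at was nearest to Ctsl, a lysosomal protease, at 0.20 (median 0.56), and Ass1 to Dock9 at 0.36 and to Cd14 at 0.37 (median 0.89). Glul M91652complete_seq_at was nearest to Mrps31 at 0.21 and Arpc5l at 0.22 (median 0.53). These are descriptions of 13 arrays in 4 groups and share the normalization of each array.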

How the data were processed

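The authors deposited array intensity per probe set on a linear scale, made with MAS5 per the submitters' processing notes (version not stated there). Because TEN-220 replicate 1 was unscaled, quantile normalization was applied to the 13 arrays over 8740 probe sets, without the 59 controls. Signals under the 10th percentile (9.338) were raised to it, log2 was taken, and the 40% dimmest by mean were dropped, which left 5244. A signal of 46.67, the 95th percentile of 19 bacterial and yeast controls, stood for background.

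The 4 group means were fitted by limma 3.58.1 in R 4.3.3 (eBayes, trended variance). Tests were two-sided, and calls needed an adjusted p under 0.05 after Benjamini-Hochberg adjustment over all 5244 in that comparison. Code was tested on simulated data. The number of arrays limits the precision. Levels are geometric means. Every member probe set is named. Of each list, called genes are named by smallest p, at most 4 per direction. Others (Got1, Got2 and genes that were not called) were added after their values were seen. A list gene is represented by its brightest probe set. Likeness was ranked for 1 probe set per member. The members and lists were chosen with earlier results of these data known. Alternatives covered the scaling, floor, filter, variance model, weights, threshold, replicate block, 2-group fits and each array in turn. Python 3.11.15 and matplotlib 3.10.9 drew the plots.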

Additional observations from a re-analysis of the deposited data

Results flagged for a closer look

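On Glul rc_AA852004_s_at, EtOH-160 replicate 2 lay far below the other 3 arrays of its group: its gap to the nearest was 0.856 of the group's range, above Dixon's 95% critical value for 4 arrays. Only this group has 4 arrays, and 13 probe sets were looked at in it, where chance alone marks about 1 in 20. The same array was the lowest of 13 on 4 of 4 Glul probe sets. The cause was not tested.

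Gls2 was called in the interaction, with ethanol changes of 1.25 at 160 kcal and −0.05 at 220 kcal that differed by 1.31 on the log2 scale. The call was lost in 12 of 25 alternatives. Without EtOH-220 replicate 1 the change at 220 kcal was 0.24.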

How the results depend on the processing

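Of 15 called changes of members, 342 of 395 alternatives left the call and 53 ended it, and 0 reversed it. Of 63 changes that were not called, 18 of 1659 alternatives gave a call and 61 turned the sign without one, 21 of these with the values as deposited. The count of called probe sets for ethanol at 160 kcal was 7 and became 1, for Ass1, with the values as deposited, and 6 higher and 0 lower with median-centred values. With the values as deposited, the probe sets that lost this call kept the direction and most of the size of their change. For energy without ethanol the count of 1 became 2 with median-centred values, array weights, an adjusted p under 0.1 or a replicate block, and 3 with only the 2 groups in the fit. For energy with ethanol the count of 1 became 0 with the values as deposited, with no filter and with only the 2 groups. For both against control the count of 5 became 3 with median-centred values, the values as deposited or an adjusted p under 0.01, 9 with array weights and 2 with the block. The interaction count of 1 became 2 with median-centred values or an adjusted p under 0.1, and 0 with the values as deposited, no filter, an adjusted p under 0.01 or the block. Median-centring moved the median of all probe sets to 0.13 for ethanol at 160 kcal and to −0.16 for energy without ethanol, and the values as deposited moved it to 0.64, 0.70 and 0.62 in the pairwise comparisons with TEN-220. The causes were not tested beyond these shifts.

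Leaving out 1 array at a time gave counts of 0 to 0 for ethanol at 220 kcal, 6 to 7 for ethanol at 160 kcal, 1 to 2 for energy without ethanol, 0 to 1 for energy with ethanol, 2 to 6 for both against control and 0 to 1 for the interaction. The count for both against control was 2 without TEN-220 replicate 3 and 3 without TEN-220 replicate 2. Without the TEN-160 arrays the counts were 0, 1 and 5 in the comparisons that do not use them, as with them.

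With the replicate number as a block the counts were 0 for ethanol at 220 kcal, 7 for ethanol at 160 kcal, 2 for energy without ethanol, 1 for energy with ethanol, 2 for both against control and 0 for the interaction. No strong pairing by number was seen, though so few arrays cannot exclude a weak one. Deviations from group means were correlated across probe sets between arrays of different groups. Over 18 same-numbered pairs r ran from −0.112 to 0.0853 (median 0.0339), 0 of them over 0.1. Over 45 pairs with different numbers it ran from −0.159 to 0.2 (median −0.0035), 3 of them over 0.1. The block takes up EtOH-160 replicate 4 whole, since no other array has that number.

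With so few arrays, the SE of a member's pairwise change ran from 0.138 for Cps1 M12335expandedCDS_s_at to 0.356 for Ass1.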
